A study of Mus musculus with 21 samples.

Results

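The genes described here build the coat of clathrin-coated vesicles: the clathrin heavy chain gene Cltc, the light chain genes Clta and Cltb, the AP-2 adaptor genes Ap2a1, Ap2a2, Ap2b1 and Ap2m1, and Picalm, which encodes the clathrin assembly protein CALM. They are 8 of the 23351 gene symbols in the deposited tables, and each was found as a single row in every table. The members were chosen by their place in the coat around Cltc, and Cltc itself was selected on its high reads and RPKM in the translatomes compared with the transcriptomes. Its values in those contrasts are therefore given as a description with no test, while the 7 partner genes were tested in every comparison. The question was whether the gain of Cltc on tagged ribosomes was shared by its partners.

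The data came from E14.5 mouse embryos, in 7 groups of 3 samples each. All embryos carried 1 Cre allele together with Gt(ROSA)26Sor-mCherry-Rpl10a+/-, an allele derived from a single targeted ES cell clone that expresses an mCherry-tagged large-subunit ribosomal protein after Cre recombination. Sox2Cre+/- embryos, in which the tag is active in all cells of the embryo proper, gave total RNA (brain transcriptome and kidney transcriptome) and RNA bound to immunoprecipitated tagged ribosomes (brain translatome and kidney translatome) from forebrain and kidney. Cdh5CreERT2+/- embryos, in which tamoxifen activates the tag in endothelial cells (EC), gave the brain EC translatome and the kidney EC translatome, and Emx1Cre+/- embryos gave the Emx1-lineage translatome of the dorsal telencephalon. Per the study's sample sheet, organs of more than 1 embryo were pooled in each sample. Precipitates from embryos without the tag were not analysed here.

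Clathrin forms a lattice of three-legged units, each made of heavy chains that carry a light chain near the centre, and this lattice bends a patch of membrane into a vesicle. At the plasma membrane the lattice is held by AP-2, a complex of an α, a β2, a μ2 and a σ2 subunit that binds membrane lipids, the sorting signals of receptors and clathrin. Neurons use this machinery to recover synaptic vesicles and endothelial cells to take up and sort surface receptors, and the light chains exist in tissue-dependent splice forms with inserts in neurons.

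The members are protein-coding genes on 5 chromosomes (GENCODE vM21 on GRCm38, the build of the deposited tables). Cltc lies at chr11:86694351-86757565 on the minus strand, and its 32 exons hold a coding sequence of 5028 bases. Clta lies at chr4:44004452-44032846 on the plus strand with a coding sequence of 711 bases, and Cltb at chr13:54592401-54611344 on the minus strand with 636 bases. Of the AP-2 genes, Ap2a1 lies at chr7:44900373-44929496 on the minus strand, and Ap2a2 at chr7:141562173-141633011, Ap2b1 at chr11:83299024-83405035 and Ap2m1 at chr16:20535478-20544909 on the plus strand. Picalm lies at chr7:90130213-90213465 on the plus strand. The start of the coding sequence is shown for 6 of them because it is where ribosomes begin translation. The comparison of ribosome-bound with total RNA does not measure this step by itself. Each line gives 12 bases of the leader and 48 coding bases of the GENCODE transcript, 5′ to 3′, with the start codon in capitals.
Cltc: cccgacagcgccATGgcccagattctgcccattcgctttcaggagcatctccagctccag
Clta: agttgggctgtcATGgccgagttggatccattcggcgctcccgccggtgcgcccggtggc
Cltb: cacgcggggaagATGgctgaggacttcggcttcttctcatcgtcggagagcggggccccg
Ap2a1: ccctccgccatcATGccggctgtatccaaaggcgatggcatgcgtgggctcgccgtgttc
Ap2b1: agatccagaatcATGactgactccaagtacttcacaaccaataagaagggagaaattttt
Ap2m1: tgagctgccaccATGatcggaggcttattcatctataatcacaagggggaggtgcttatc

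All 3 clathrin chain genes had a purine 3 bases before the start codon and a G directly after it, the context in which start codons are read most efficiently, and no ATG in the leader. The 4 AP-2 genes and Picalm lacked the G, and Ap2b1 and Ap2m1 had 1 ATG in the leader. The full context was common, being present in 7997 of 18933 protein-coding genes (42.2%), and 48.9% of genes had no ATG in the leader. These are descriptions of the sequences, and their part in the values below was not tested.

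Between 21760652 and 79231692 reads were counted per sample, fewest in the kidney translatome. Every member passed the filter of at least 1 read in all comparisons. The 9 endothelial marker genes together reached 2229 to 2278 RPKM (reads normalised to transcript length and to the mRNA reads of the library) in the brain EC translatome and 1975 to 2326 in the kidney EC translatome, against 120 to 136 and 361 to 385 in the translatomes of the whole organs. The brain EC translatome also held 400 to 511 RPKM of 6 neuronal markers, compared with 2193 to 2213 in the brain translatome. The kidney EC translatome held 79.5 to 99.7 RPKM of 8 kidney markers, compared with 385 to 419 in the kidney translatome. Its 5 mural markers together had 97.1 to 109 RPKM, compared with 101 to 118 in the kidney translatome. Levels of Ap2m1 are uncertain, because 93.6% of the 50-base words of its coding sequence also occur in other annotated genes, most in the processed copy Gm13509. For Cltc, Clta, Cltb and Picalm this share was 0, and for the remaining AP-2 members it was at most 6.43%.

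The heavy chain was among the most abundant messages on tagged ribosomes. In the 3 brain transcriptome samples Cltc measured 87.3, 81.6 and 84.2 RPKM, and in the brain translatome 382, 338 and 334 RPKM. In the kidney transcriptome it measured 105, 98.2 and 110 RPKM, and in the kidney translatome 680, 590 and 575 RPKM. The translatome samples stood far above the transcriptome samples in both organs, without overlap. The edgeR log2 fold change was 2.09 (SE 0.07), a 4.25-fold gain, in brain and 2.56 (SE 0.09), 5.89-fold, in kidney. Among rows with a mean of at least 5 RPKM, Cltc ranked 2 of 9794 by this log2 fold change in brain and 1 of 9992 in kidney, and among all rows tested, which include rows with few reads, 309 of 19446 and 131 of 19336. Its share of all counted reads went from 0.0499% to 0.0533% in the brain transcriptome to 0.205% to 0.234% in the brain translatome, and from 0.0596% to 0.0672% to 0.352% to 0.415% in kidney.

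Among the TRAP samples of selected cells, those of EC lay above their whole-organ translatomes and those of the Emx1-lineage did not. Cltc measured 643, 544 and 620 RPKM in the brain EC translatome and 1223, 847 and 1121 RPKM in the kidney EC translatome. In the Emx1-lineage translatome it measured 301, 326 and 324 RPKM, below every sample of the brain translatome. By mean RPKM over 20917 mRNA rows, Cltc ranked 643 in the brain transcriptome, 492 in the kidney transcriptome, 110 in the Emx1-lineage translatome, 96 in the brain translatome, 29 in the brain EC translatome, 28 in the kidney translatome and 12 in the kidney EC translatome. The ranges of the brain EC and the kidney translatome overlapped, and no other neighbours in this order did. The study's sample sheet lists, among the TRAP groups, the most RNA entering the libraries of the Emx1-lineage and brain translatomes, which had the lowest Cltc, and the least entering both kidney TRAP groups. The part of RNA input in the levels of Cltc was not tested.

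**Figure D1:**
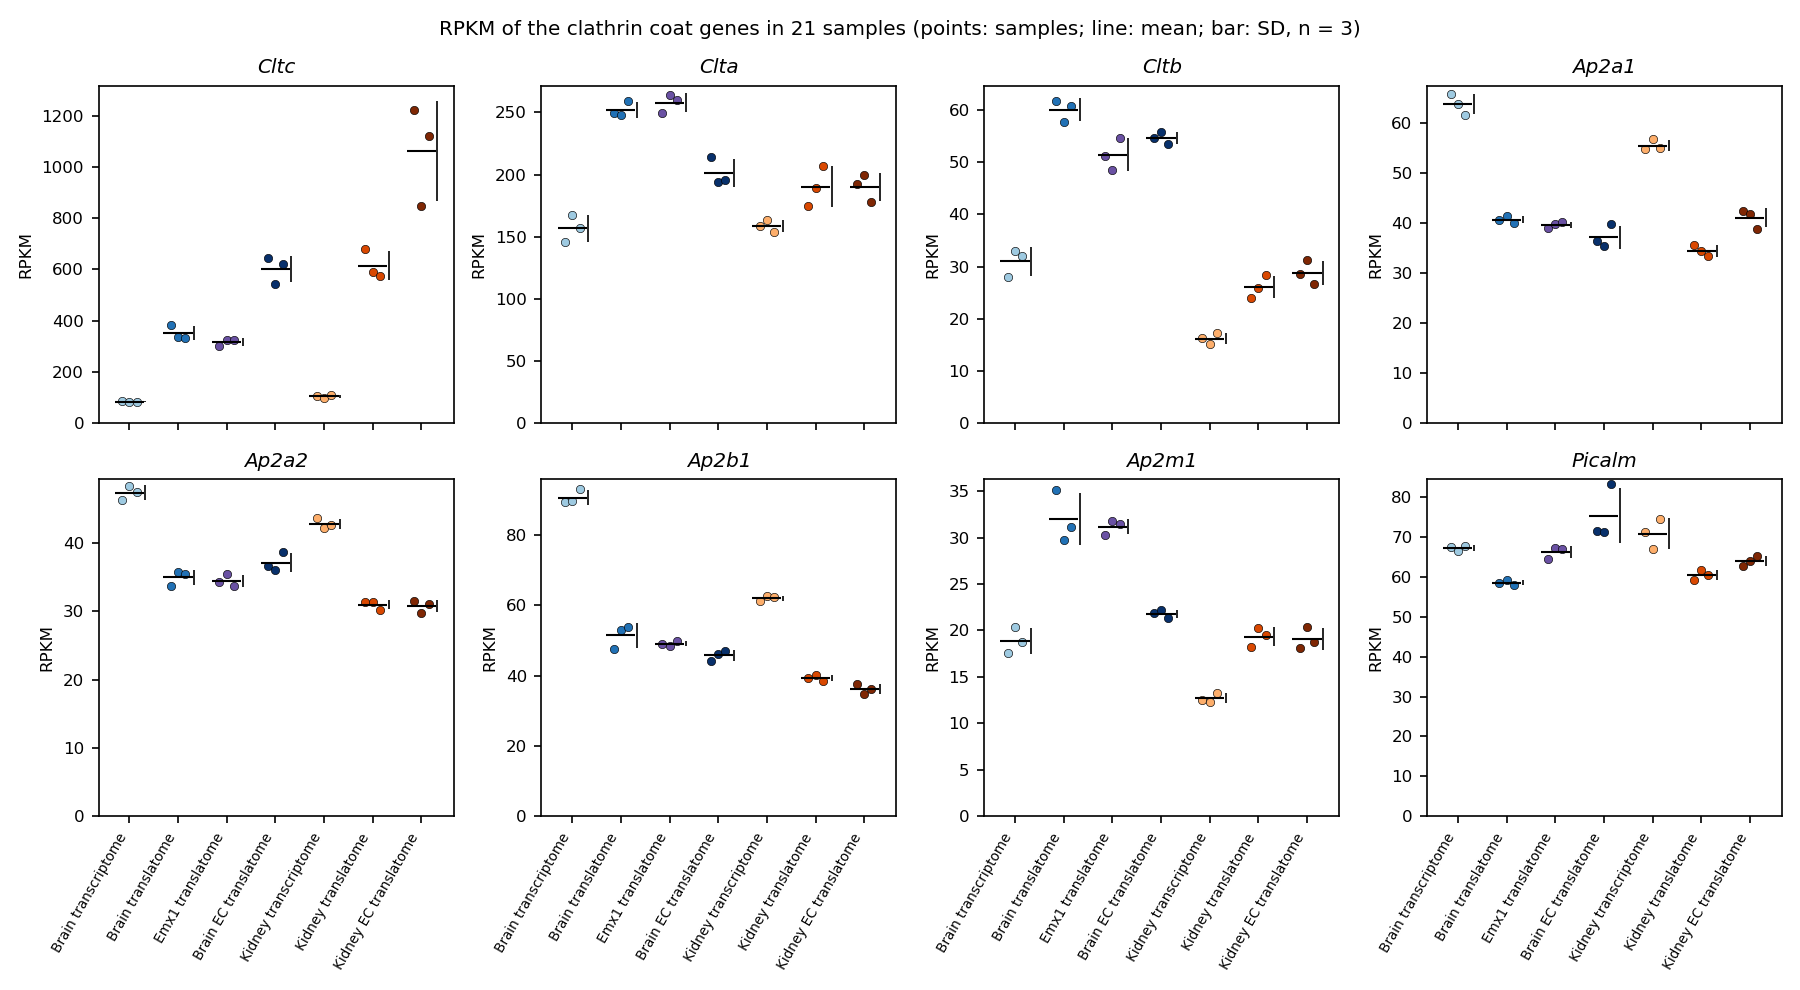
RPKM (y axis, from 0) of the 8 genes in each sample (points) of the 7 groups (x axis), with the group mean as a line and the SD as a bar (n = 3). Cltc rose from 84.4 RPKM on average in the brain transcriptome to 351 in the brain translatome and from 105 in the kidney transcriptome to 615 in the kidney translatome, whereas Ap2a1, Ap2a2 and Ap2b1 were lower in the translatomes.

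The light chains followed the heavy chain in direction but not in size. Clta, which encodes light chain A, measured 145.4, 168 and 157 RPKM in the brain transcriptome and 249, 248 and 259 RPKM in the brain translatome. All translatome samples were higher, with a log2 fold change of 0.72 (SE 0.06, edgeR adjusted p = 1.32e-07). Cltb, which encodes light chain B, measured 27.9, 33.1 and 32.1 RPKM in the brain transcriptome and 61.8, 57.7 and 60.9 RPKM in the brain translatome. Its groups did not overlap either, and the log2 fold change was 0.98 (SE 0.07, edgeR adjusted p = 1.64e-08). Over all rows, 37.1% of 19446 were called in this comparison at an adjusted p under 0.001, 18.6% higher and 18.5% lower in the translatome. Of the 7 partners, 3 were called higher and 3 lower.

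In kidney both light chains were higher in the translatome, and in the fit without pairing only Cltb passed the threshold. The difference between their log2 fold changes was not tested. Cltb measured 16.2, 15.1 and 17.3 RPKM in the transcriptome and 24.0, 26.0 and 28.3 RPKM in the translatome, with all translatome samples above all transcriptome samples (log2 fold change 0.69, SE 0.08, edgeR adjusted p = 3.67e-05). Clta measured 158, 164 and 154 RPKM in the transcriptome and 175, 189 and 207 RPKM in the translatome, again without overlap. Its log2 fold change of 0.26 (SE 0.06) did not pass the threshold of 0.001 (edgeR adjusted p = 0.00349). With the tissue sample as a block, which pairs each translatome with the transcriptome of the same lysate, Clta passed at an adjusted p of 1.3e-10, and over 14 alternatives its adjusted p ran from 1.3e-10 to 0.0154. The block also raised the calls over all rows in kidney from 2880 higher and 3049 lower to 4636 and 4860. Without the block 30.7% of 19336 rows were called in this comparison, 14.9% higher and 15.8% lower, and of the 7 partners 2 were called higher and 3 lower.

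The large AP-2 subunits went the opposite way in both organs. Ap2a1, which encodes an α subunit, measured 65.8, 63.9 and 61.7 RPKM in the brain transcriptome and 40.7, 41.4 and 40.1 RPKM in the brain translatome. In kidney it measured 54.9, 56.8 and 55.0 RPKM in the transcriptome and 35.6, 34.4 and 33.4 RPKM in the translatome. Every translatome sample was lower, and the log2 fold changes were -0.62 (SE 0.05, edgeR adjusted p = 4.41e-08) in brain and -0.69 (SE 0.04, edgeR adjusted p = 2.55e-07) in kidney. Ap2b1, which encodes β2, the subunit that binds clathrin, fell from 89.3, 89.6 and 93.0 RPKM in the brain transcriptome to 47.5, 53.1 and 53.9 RPKM in the brain translatome. It fell likewise from 61.2, 62.5 and 62.3 RPKM in the kidney transcriptome to 39.2, 40.3 and 38.5 RPKM in the kidney translatome. The groups did not overlap in either organ, with log2 fold changes of -0.79 (SE 0.06, edgeR adjusted p = 8.33e-08) and -0.65 (SE 0.04, edgeR adjusted p = 3.31e-07). Ap2a2, the gene of the other α subunit, differed by -0.41 (SE 0.05, edgeR adjusted p = 4.99e-06) in brain and -0.47 (SE 0.04, edgeR adjusted p = 2.18e-06) in kidney on the log2 scale. Its means were 47.4 RPKM in the brain transcriptome and 35.0 in the brain translatome, and 42.8 and 31.0 in kidney, with every translatome sample below every transcriptome sample.

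The medium subunit gene Ap2m1, whose product μ2 reads the sorting signals of cargo, was higher in the translatomes. It measured 17.6, 20.3 and 18.8 RPKM in the brain transcriptome and 35.2, 29.7 and 31.2 RPKM in the brain translatome, and 12.5, 12.3 and 13.3 RPKM in the kidney transcriptome and 18.2, 20.3 and 19.6 RPKM in the kidney translatome. The groups were separate in both organs, with log2 fold changes of 0.79 (SE 0.08, edgeR adjusted p = 5.79e-07) and 0.61 (SE 0.07, edgeR adjusted p = 2.07e-05). Ap2s1, the gene of the small σ2 subunit and not a member of the set, completes the complex. Its mean was 137 RPKM in the brain transcriptome and 344 in the brain translatome (log2 fold change 1.35, SE 0.06, edgeR adjusted p = 3.21e-10), and 109 and 202 RPKM in kidney (0.89, SE 0.05, edgeR adjusted p = 1.8e-07). The subunits of the same complex thus differed in sign, the α and β2 genes being lower and the μ2 and σ2 genes higher on ribosomes in both organs. The GENCODE transcripts of the lower genes were longer (Ap2a1 3301, Ap2a2 4646 and Ap2b1 5625 bases) than those of Ap2m1 (2937) and Ap2s1 (836). Cltc, with 6519 bases, went the other way. The paper found shorter transcripts enriched in both translatomes, with length appearing to predict only weakly. The part of transcript length was not tested here. No member of AP-2, and neither light chain, reached the fold of the heavy chain.

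Picalm, whose product helps clathrin assemble on membranes, changed least. It measured 67.6, 66.5 and 67.7 RPKM in the brain transcriptome and 58.6, 59.2 and 58.0 RPKM in the brain translatome, and 71.2, 66.9 and 74.5 RPKM and 59.3, 61.8 and 60.5 RPKM in the same groups of kidney. The translatome samples were all below the transcriptome samples, but the log2 differences of -0.17 (SE 0.05, edgeR adjusted p = 0.00911) and -0.23 (SE 0.05, edgeR adjusted p = 0.0018) did not pass the threshold. With the tissue sample as a block, Picalm passed in kidney at an adjusted p of 9.61e-09, over 14 alternatives with a range of 9.61e-09 to 0.0245. In the brain its adjusted p ran from 0.000204 with DESeq2 to 0.0514.

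The calls of the other partners did not turn on the processing. The 6 partner calls in brain and the 5 in kidney kept their direction and stayed past the threshold in all 14 alternatives, among them the fit with the sequencing run as a term. The median log2 fold change of the 7 partners was -0.17 in brain and -0.23 in kidney, beside medians of -0.01 and -0.03 over all rows.

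**Figure D2:**
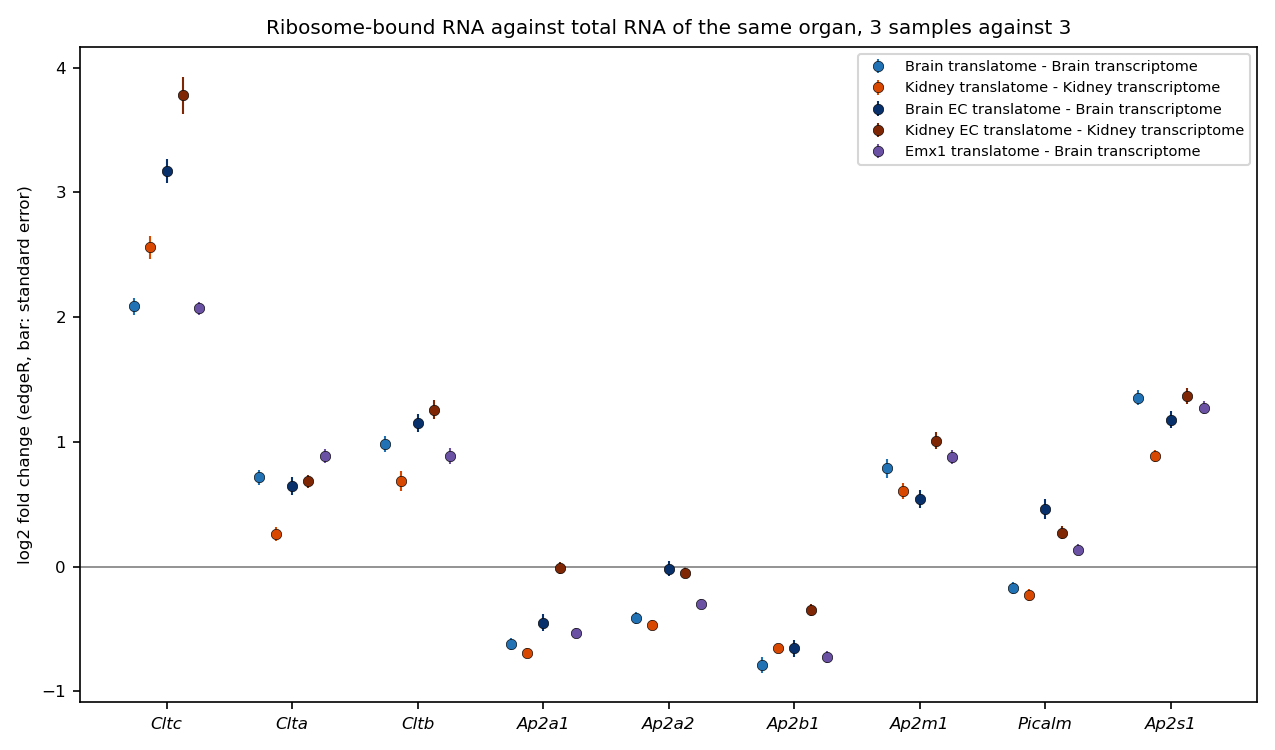
Log2 fold change of each gene (y axis, edgeR, bars are standard errors) in the 5 groups of ribosome-bound RNA against the total RNA of the same organ, 3 samples against 3, in colours named in the legend. Cltc lies between 2.07 and 3.78 in all 5, above the 7 partners, of which Cltb comes nearest with 1.26 at most, and above Ap2s1 with 1.37 at most.

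**Figure D3:**
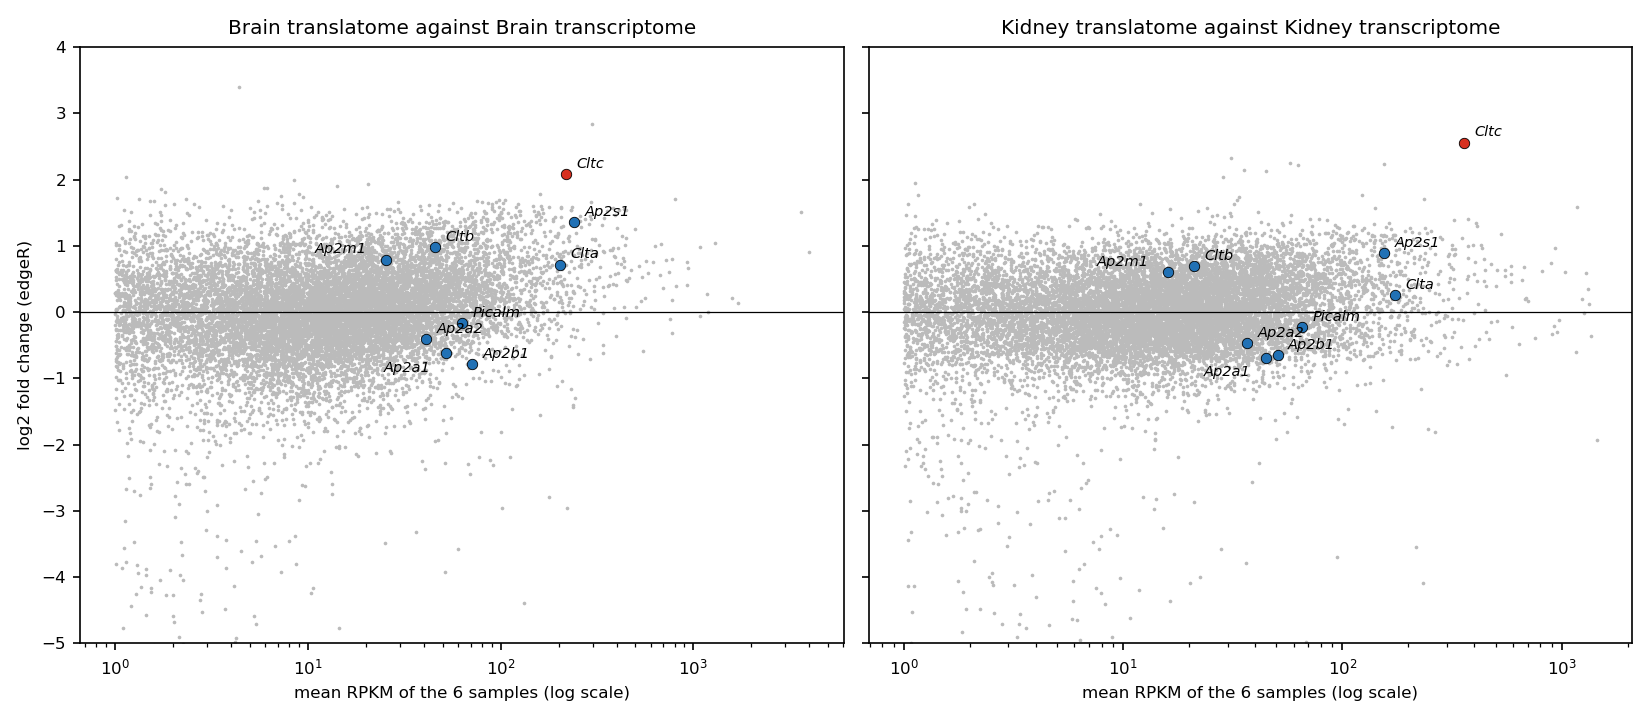
Log2 fold change of translatome against transcriptome (y axis, edgeR) by the mean RPKM of the 6 samples (x axis, log scale) for 12862 rows in brain and 12839 in kidney with a mean of at least 1 RPKM (grey). Cltc (red) stands above rows of similar level and the partners (blue) lie within the bulk of rows. Ap2s1, also blue and not a partner, lies above most rows, at 1.35 in brain and 0.89 in kidney. The 69 and 32 rows outside the y range are not drawn.

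The gain could also be compared between the organs, through the interaction of organ and RNA fraction in a fit of the 12 Sox2Cre samples. The organ difference in log2 fold change, brain minus kidney, was -0.49 (SE 0.12) for Cltc, given without a test because the rule used both contrasts. For Clta it was 0.44 (SE 0.09), which did not pass the threshold (edgeR adjusted p = 0.00162). With the tissue sample as a block it passed at an adjusted p of 9.41e-06, and over 19 alternatives the adjusted p ran from 9.41e-06 to 0.00598. For Cltb the difference was 0.28 (SE 0.10, edgeR adjusted p = 0.0689), and for the 4 AP-2 members and Picalm it lay between -0.15 and 0.17, with adjusted p from 0.158 to 0.748. In the fit without the block none of the 7 partners was called, where 6.47% of 20108 rows were. These were 2.35% with the higher value in brain and 4.12% with the higher value in kidney. With the block Clta alone was called, and over all rows the calls went from 472 and 829 to 1467 and 1978.

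In total RNA the heavy chain was not called between the organs, whereas the 4 AP-2 genes were. Scaling by total counts alone changed the call for Cltc and for Ap2a2. Cltc was lower in every brain transcriptome sample than in any kidney transcriptome sample, but the log2 difference of -0.12 (SE 0.06) did not pass the test (edgeR adjusted p = 0.11). Scaling by total counts alone, which moved the median of all rows to -0.20, made it -0.30 with an adjusted p of 0.000968, against a range of 0.000968 to 0.394 over 13 alternatives. Cltb was the member with the largest organ difference, with 1.13 (SE 0.08, edgeR adjusted p = 2.55e-07) on the log2 scale. Ap2m1 (0.76, SE 0.07), Ap2b1 (0.74, SE 0.05), Ap2a1 (0.40, SE 0.04) and Ap2a2 (0.33, SE 0.04) were also higher in brain, with edgeR adjusted p between 1.01e-07 and 6.63e-06. Ap2a2 lost its call when total counts alone scaled the samples (0.15, adjusted p = 0.00197, with a range over 13 alternatives of 7.59e-16 to 0.00197). Clta (0.23, edgeR adjusted p = 0.00191) and Picalm (0.14, edgeR adjusted p = 0.0141) overlapped between the organs and were not called, and with total counts alone the Picalm difference was -0.04. In all, 5 of the 8 genes were called higher in brain and 0 lower, where 53.5% of 19841 rows were called, 27.2% higher and 26.3% lower. In such bulk samples fewer cells of a type and less RNA per cell cannot be told apart.

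The endothelial translatomes were compared with the translatomes of the whole organs, so that both sides were ribosome-bound. The reference samples are those that the rule used for Cltc. Cltc was higher in both, by 1.07 (SE 0.10, edgeR adjusted p = 5.89e-07) in brain and 1.15 (SE 0.14, edgeR adjusted p = 4.61e-05) in kidney on the log2 scale, a further 2.10-fold and 2.21-fold. The endothelial samples lay above the whole-organ samples without overlap in both organs. Kidney EC replicate 2, at 847 RPKM, was the lowest of its group, and without it the log2 fold change was 1.30. Under scaling by total counts alone Cltc remained higher, by 0.77 in brain and 0.78 in kidney, and it kept its call in all 13 alternatives.

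Most partners moved little in the same comparison, and their direction depended on scaling. Total counts alone moved the median of all rows from -0.01 to -0.30 in brain and from -0.04 to -0.41 in kidney, so that values close to 0 turned sign. In brain, Picalm measured 71.4, 71.3 and 83.3 RPKM in the EC translatome, above the 58.0 to 59.2 RPKM of the brain translatome (log2 fold change 0.62, SE 0.08, edgeR adjusted p = 9.34e-06). With total counts alone Picalm stayed higher at 0.32 but lost its call (adjusted p = 0.00202, the highest of 13 alternatives, the lowest being 2.29e-13). Ap2a2 was called higher (0.37, SE 0.06, edgeR adjusted p = 0.000179), and with total counts alone it had 0.08. It also lost its call without brain translatome replicate 1 (adjusted p = 0.00195), over a range of 2.36e-07 to 0.306. Cltb (0.15), Ap2a1 (0.15) and Ap2b1 (0.11) were not called and turned to -0.14, -0.14 and -0.18 with total counts alone. Their RPKM was lower in every EC sample than in any brain translatome sample. Clta (-0.09) and Ap2m1 (-0.27) were not called, and both were called lower with total counts alone, at -0.39 and -0.56. Of the 8 genes 3 were called higher and 0 lower, where 46.2% of 19103 rows were called, 24.8% higher (4740) and 21.4% lower (4084), which total counts alone changed to 3397 higher and 6002 lower.

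In kidney the EC translatome had 5 of the 8 genes called higher and 0 lower, where 31.7% of 18940 rows were called, 16.7% higher (3163) and 15% lower (2837), and 1564 higher and 5655 lower with total counts alone. Ap2a1 measured 42.5, 41.9 and 38.9 RPKM, above the 33.4 to 35.6 RPKM of the kidney translatome, with a log2 fold change of 0.61 (SE 0.06, edgeR adjusted p = 4.17e-06) that was 0.24 with total counts alone and then missed the threshold (adjusted p = 0.00372, the highest of 13 alternatives, the lowest being 2.33e-17). Picalm (0.43, SE 0.06, edgeR adjusted p = 6.03e-05) and Cltb (0.50, SE 0.08, edgeR adjusted p = 0.000382) were called and had 0.06 and 0.13 with total counts alone, where neither passed. Cltb also lost its call with the replicate block (adjusted p = 0.00102), without kidney translatome replicate 1 or 2 and without kidney EC replicate 1 or 2, over a range of 1.35e-06 to 0.219. Ap2a2 was called at 0.35 (SE 0.05, edgeR adjusted p = 0.000258) and turned to -0.02 with total counts alone, and it lost its call without any kidney translatome replicate or kidney EC replicate 1, over a range of 6.68e-07 to 0.752. Clta (0.35), Ap2m1 (0.33) and Ap2b1 (0.24) were not called and turned to -0.02, -0.04 and -0.13. The RPKM of Cltb, Ap2a2, Clta and Ap2m1 overlapped between the groups and that of Ap2b1 was lower in the EC samples. Clta passed with DESeq2 (adjusted p = 6.1e-05), over a range of 6.1e-05 to 0.872. The heavy chain was the only member above the whole-organ translatome under every alternative with its call kept in both organs. The EC groups were each sequenced in a run of their own, so run and cell population cannot be told apart.

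The Emx1-lineage translatome, in which 6 dorsal telencephalon markers together had 1214 to 1274 RPKM against 596 to 611 in the brain translatome, left the coat genes almost level. Cltc differed by -0.09 (SE 0.06, edgeR adjusted p = 0.203) on the log2 scale from the brain translatome. Among the 8 genes, Picalm alone was called, with 64.5, 67.3 and 67.0 RPKM against 58.6, 59.2 and 58.0 RPKM and a log2 fold change of 0.23 (SE 0.04, edgeR adjusted p = 0.000305). That call was lost with the replicate block (adjusted p = 0.00183), total counts alone and the fit of all 21 samples. Without brain translatome replicate 2 it was 0.00101, and without each Emx1-lineage replicate in turn 0.00145, 0.00206 and 0.00255, within a range of 1.42e-06 to 0.00255. The values of Clta, Ap2a1, Ap2a2, Ap2b1 and Ap2m1 lay between -0.01 and 0.10, and that of Cltb was -0.17 (SE 0.05, edgeR adjusted p = 0.0186). Over all rows 22.1% of 19006 were called, 9.2% higher (1749) and 12.8% lower (2442), and 1183 higher and 2778 lower with total counts alone.

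Set directly against each other, the EC translatomes of brain and kidney differed in Cltc and in Cltb, in opposite directions, while Clta was not called (0.13, SE 0.07, edgeR adjusted p = 0.119) and its groups overlapped. Cltc was lower in brain by 0.78 on the log2 scale (SE 0.14, edgeR adjusted p = 0.000626), with all brain EC samples below all kidney EC samples. The call was lost in 5 of the 6 fits that left out a sample, all but that without kidney EC replicate 2, in which the log2 difference ran from -0.92 to -0.66, and with a filter of 10 counts in 3 samples (adjusted p = 0.00114), within a range of 9.44e-08 to 0.00236. Cltb was higher in brain, with 54.6, 55.9 and 53.5 RPKM against 28.7, 31.2 and 26.6 RPKM (log2 fold change 0.97, SE 0.07, edgeR adjusted p = 4.63e-07). Ap2b1 was also called higher (0.38, SE 0.07, edgeR adjusted p = 0.000724), a call lost under the replicate block and in each fit without a sample, with an adjusted p of at most 0.00284. Thus 2 of the 8 genes were higher in brain EC and 1 lower, where 37% of 19238 rows were called, 20.1% higher and 16.9% lower.

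When each selected population was set against the total RNA of its organ instead, Cltc had log2 fold changes of 3.17 (SE 0.10) in brain EC, 3.78 (SE 0.15) in kidney EC and 2.07 (SE 0.05) in the Emx1-lineage, all given as a description. With total counts alone they were 2.83, 3.34 and 1.92. In brain EC, Cltb (1.15), Clta (0.65), Ap2m1 (0.54) and Picalm (0.46) were called higher and Ap2a1 (-0.45) and Ap2b1 (-0.65) lower. With total counts alone Clta, Ap2m1 and Picalm lost their calls there, and Ap2a2 was called lower at -0.35. In kidney EC, Cltb (1.26), Ap2m1 (1.01) and Clta (0.69) were called higher and Ap2b1 (-0.35) lower, and in kidney EC Clta lost its call with total counts alone (0.25) and Ap2b1 lost that call without kidney transcriptome replicate 1 or 2 (adjusted p at most 0.00123). In the Emx1-lineage, Cltb and Clta (0.89 each) and Ap2m1 (0.88) were called higher and Ap2a1 (-0.53), Ap2a2 (-0.30) and Ap2b1 (-0.72) lower. These 3 comparisons share their transcriptome samples with those of the whole-organ translatomes. Over all rows 51.1% were called in brain EC (26.8% higher, 5232, and 24.3% lower, 4750), 41.1% in kidney EC (22.7% higher, 4388, and 18.4% lower, 3550) and 49.3% in the Emx1-lineage (25.4% higher, 4952, and 23.8% lower, 4641). With total counts alone the rows called higher and lower were 3763 and 6862, 2246 and 6864, and 3802 and 5801.

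Because RPKM is per length, the levels of the chains could be set side by side. In the transcriptomes the summed light chains exceeded the heavy chain, with a ratio of Cltc to Clta plus Cltb RPKM of 0.452 ± 0.049 (SD, n = 3) in brain and 0.599 ± 0.047 in kidney. In the translatomes the ratio was 1.13 ± 0.09 in brain, 1.02 ± 0.02 in the Emx1-lineage and 2.87 ± 0.50 in kidney. It was 2.35 ± 0.16 in brain EC and 4.89 ± 1.06 in kidney EC. Every TRAP sample had a higher ratio than every transcriptome sample, which the gain of Cltc, used to choose it, carries into the ratio. Within AP-2, the RPKM of Ap2s1 over the sum of both α genes was 1.24 ± 0.10 in the brain transcriptome and 4.55 ± 0.07 in the brain translatome, and 1.11 ± 0.06 and 3.09 ± 0.19 in kidney.

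Between paralogs, light chain A made up most of the light chain message everywhere. The share of Clta in the RPKM of both light chains was 83.5% ± 0.4 (SD, n = 3) in the brain transcriptome and 90.7% ± 0.8 in the kidney transcriptome. The difference of -7.24 percentage points was separate in all samples and gave a two-sided exact permutation p of 0.1, the smallest that 3 against 3 samples allow. The share was lower in the translatomes of the whole organs, with 80.8% ± 0.5 in brain and 87.9% ± 0.02 in kidney, and lowest in brain EC with 78.6% ± 1.0. In the Emx1-lineage translatome it was 83.4% ± 1.0 and overlapped that of the brain transcriptome. For the α subunits, Ap2a1 held 57.4% ± 1.2 of the summed RPKM in the brain transcriptome and 56.5% ± 0.8 in the kidney transcriptome (exact permutation p = 0.4). It held 53.8% ± 0.8 in the brain translatome and 50.05% ± 0.59 in brain EC, but 52.7% ± 0.4 in the kidney translatome and 57.2% ± 1.4 in kidney EC. The coding sequences of these paralogs are 71.5% identical for Clta and Cltb and 77.5% for Ap2a1 and Ap2a2, and no 50-base word of the light chains occurs in another gene.

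**Figure D4:**
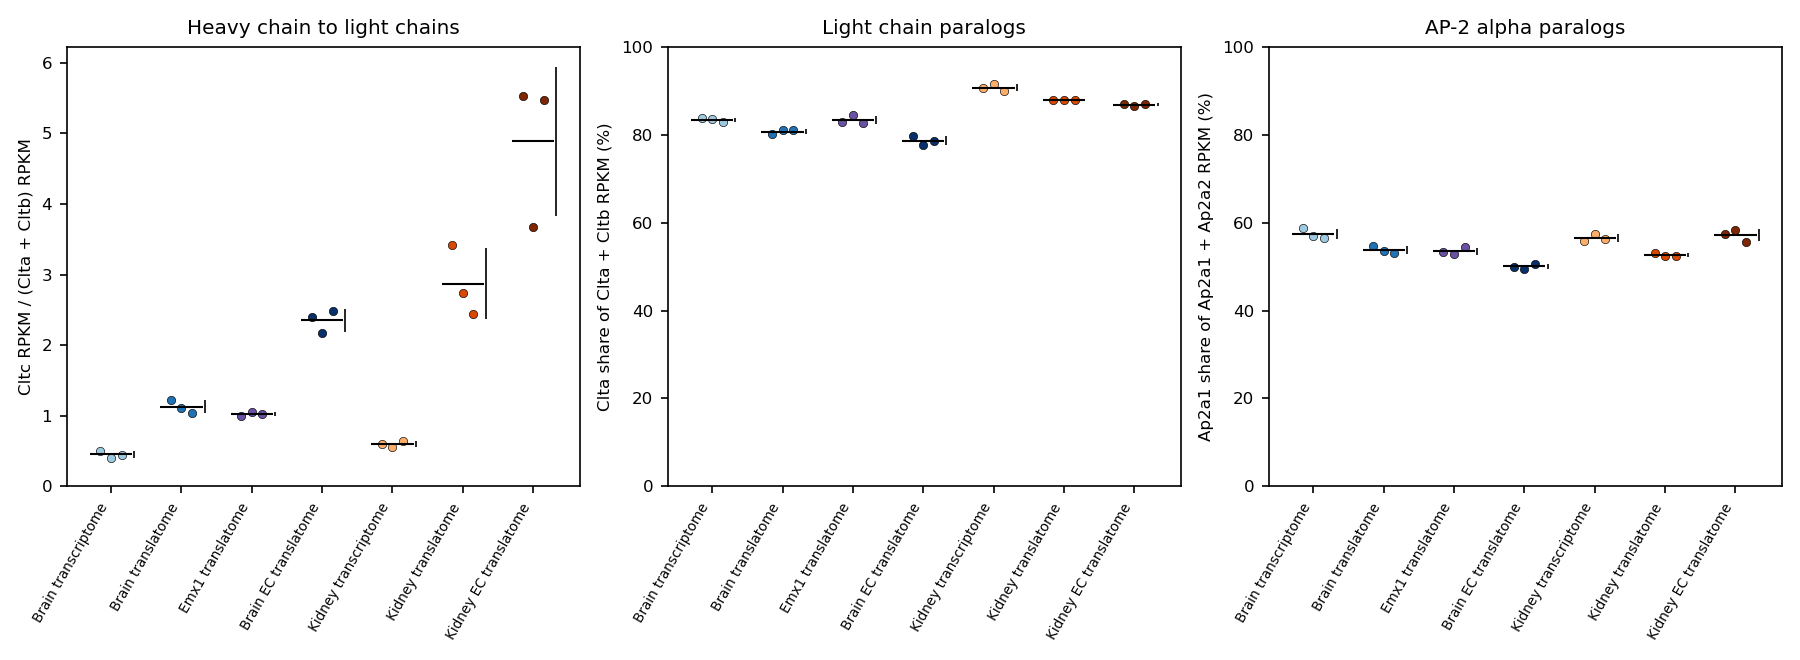
Ratio of Cltc RPKM to the summed RPKM of Clta and Cltb (left), share of Clta in both light chains (middle, %) and share of Ap2a1 in both α genes (right, %) in each sample of the 7 groups (x axis), with the mean as a line and the SD as a bar (n = 3). The ratio rises from below 1 in both transcriptomes to 4.89 in kidney EC, while the mean Clta share lies between 78.6% and 90.7% and the mean Ap2a1 share between 50.05% and 57.4%.

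The deposited values also carried a trace of splice form use. The tables sum all transcripts of Clta, Ap2a1, Ap2b1 and Picalm into 1 row each. Dividing the reads by RPKM gave the transcript length that the authors' program had used in a sample, which shifts with the mix of forms. These lengths are on the scale of that program and need not equal an annotated length. For Clta the length was 1131 to 1137 bases in the brain transcriptome, 1132 to 1141 in the brain translatome and 1142 to 1145 in the Emx1-lineage. It was 1094 to 1096 bases in brain EC and 1089 to 1091 in all 9 kidney samples. The forebrain samples other than EC thus stood apart from brain EC and kidney, with no overlap.

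Annotated Clta transcripts differ, among other things, by 2 short coding exons, the sites of the inserts known from the neuronal form of light chain A. They are shown because the length of the row depends on the mix of annotated forms, of which these exons are a part.
Clta exon 5, 54 bases at chr4:44030215-44030268: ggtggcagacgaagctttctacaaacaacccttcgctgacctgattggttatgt
Clta exon 6, 36 bases at chr4:44031400-44031435: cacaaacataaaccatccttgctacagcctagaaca
The longest annotated form, with 7 exons, has a coding sequence of 747 bases and holds both, and the forms of 657 and 651 bases hold neither and also differ in their first exon. Reads over these exons were not counted separately, so their inclusion itself was not measured.

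For Ap2a1, Ap2b1 and Picalm, too, the forebrain samples other than EC stood above brain EC and kidney. The Ap2a1 length was 3162 to 3174 bases in the brain transcriptome, brain translatome and Emx1-lineage translatome, 3155 to 3158 in brain EC, 3152 to 3153 in the kidney transcriptome and 3150.2 in every sample of both kidney translatomes. The coding sequences of its annotated forms differ by exon 16, a coding exon of 66 bases at chr7:44903462-44903527 on the minus strand.
Ap2a1 exon 16: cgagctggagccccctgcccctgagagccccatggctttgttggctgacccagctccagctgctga
For Picalm the length was 4171 to 4184 bases in the forebrain groups other than EC, 4067 to 4083 in brain EC and 4067 to 4098 in the kidney groups. For Ap2b1 it was 5442 to 5453 bases in the forebrain groups other than EC, 5432 to 5438 in brain EC and 5425 to 5439 in the kidney groups. Between the brain and kidney transcriptomes the means differed by 44.0 bases for Clta, 17.0 for Ap2a1, 11.8 for Ap2b1 and 85.4 for Picalm. Each difference was without overlap and had a two-sided exact permutation p of 0.1, the smallest possible here. In brain EC, neuronal markers were the 400 to 511 RPKM given above, and their part in these lengths was not tested. Since Cltc, Cltb, Ap2a2 and Ap2m1 have a single accession in the tables, their length was the same in all samples and gave no such information.

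**Figure D5:**
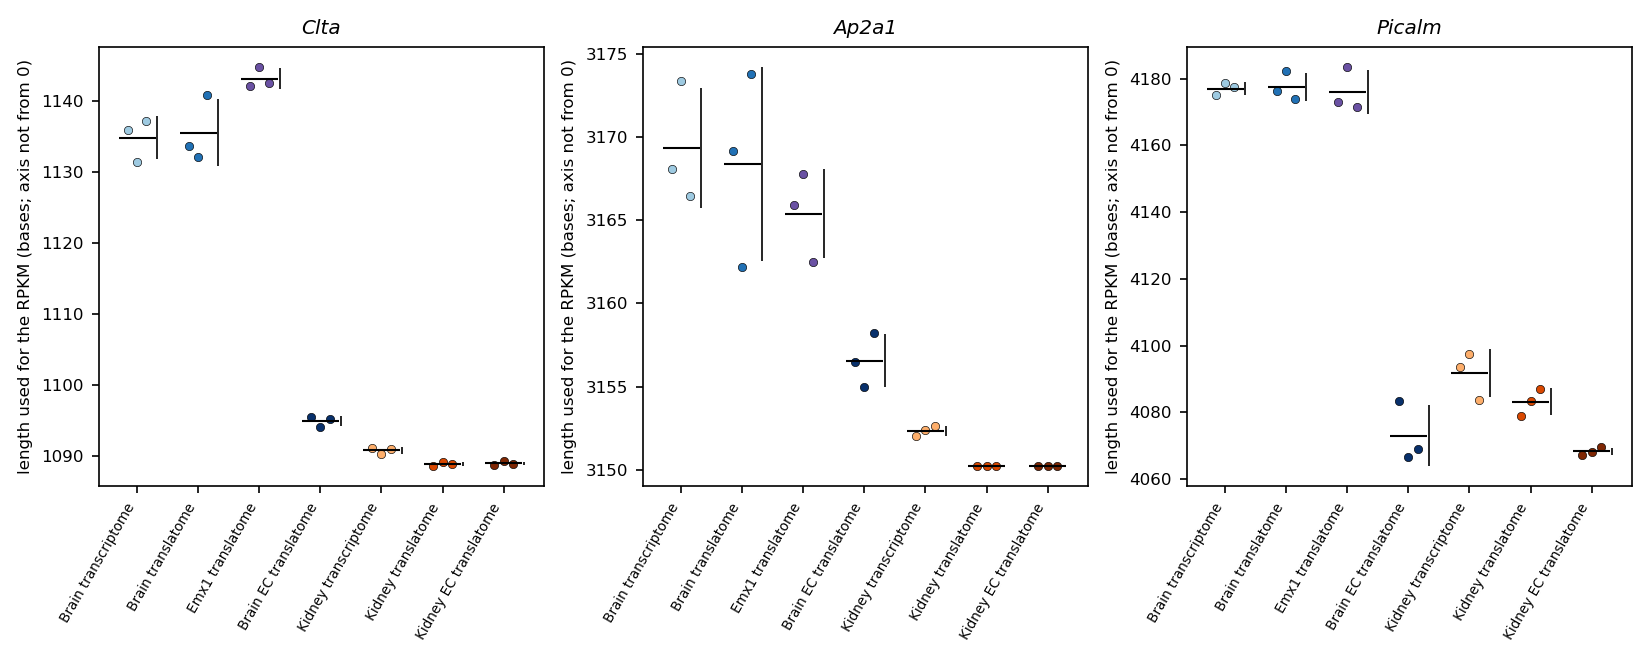
Transcript length used for the RPKM (bases, y axis not from 0), from reads and RPKM, of Clta, Ap2a1 and Picalm in each sample of the 7 groups (x axis), with the mean as a line and the SD as a bar (n = 3). For all 3 genes the brain transcriptome, brain translatome and Emx1-lineage samples lie above the brain EC and kidney samples.

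The rest of the pathway was read from a list of 49 genes of clathrin-mediated endocytosis and a list of 29 subunits of other adaptor complexes. Of the 49, 7 were called higher and 14 lower in the brain translatome than in the transcriptome, and 5 higher and 16 lower in kidney, with medians of -0.12 and -0.23 on the log2 scale. Over all rows 18.6% were called higher and 18.5% lower in brain and 14.9% and 15.8% in kidney, with medians of -0.01 and -0.03. Of the 29, 3 were higher and 13 lower in brain and 3 higher and 17 lower in kidney, with medians of -0.31 and -0.34, beside the same shares and medians over all rows. Among the genes of both lists that were called and had a mean of at least 5 RPKM, the highest value was 1.35 for Ap2s1 in brain. It was below that of Cltc.

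The extremes of the called pathway genes were partly the same kind of subunit. In brain the highest were Ap2s1, Ap1s1 (198 against 96.7 RPKM, log2 fold change 1.06, SE 0.06) and Ap4s1 (31.7 against 17.0 RPKM, 0.93, SE 0.08). In kidney they were Ap2s1, Ap4s1 (26.5 against 14.6 RPKM, 0.86, SE 0.07) and Ap1s3 (12.9 against 7.25 RPKM, 0.84, SE 0.09). All of these encode the small σ subunits of AP-2, AP-1 and AP-4. The lowest in brain were Fcho2 (-1.50, SE 0.06), which encodes an early factor of coated pits, Ap4e1 (-1.42, SE 0.07) and Ap1b1 (-1.17, SE 0.05), and in kidney Gga3 (-0.94, SE 0.06), Ap1b1 (-0.87, SE 0.04) and Ap4e1 (-0.83, SE 0.07). Ap1b1 and Ap4e1 encode large subunits of AP-1 and AP-4. Transcript length, given above for AP-2, was not compared for these genes. Snap91, the neuronal relative of Picalm, measured 33.6 to 37.3 RPKM in the brain transcriptome and 7.31 to 7.88 RPKM in brain EC, and differed by -0.17 (SE 0.06, edgeR adjusted p = 0.0212) between brain translatome and transcriptome and by -0.64 (SE 0.06, edgeR adjusted p = 6.36e-06) in kidney.

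In the EC comparisons, 24 of the 49 endocytosis genes were called higher and 15 lower in brain EC than in the brain translatome, and 24 higher and 11 lower in kidney EC than in the kidney translatome. Over all rows 24.8% were called higher and 21.4% lower in brain EC and 16.7% and 15% in kidney EC. The medians were 0.21 and 0.38, beside -0.01 and -0.04 over all rows. The medians over all rows moved to -0.30 and -0.41 with total counts alone, as given above, and that scaling bears on the list medians too. The Rpl10a row, whose protein is fused to mCherry in the Gt(ROSA)26Sor allele, measured 6.35 to 6.43 RPKM in the brain transcriptome. In the brain translatome it measured 5.89 to 7.64 RPKM. All of its 50-base words occur in other genes. Reads of the tagged copy could also fall in this row and were not separated, so its level is uncertain.

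The pattern of the heavy chain over the 21 samples was most like that of Pcnt, the gene of the centrosome protein pericentrin, with a Pearson r of 0.97 of log2(RPKM + 1) among 7798 mRNA rows with a mean of at least 10 RPKM. Pcnt had means of 8.59 RPKM in the brain transcriptome, 32.3 in the brain translatome, 13.2 in the kidney transcriptome, 58.3 in the kidney translatome and 147 in kidney EC. Babam1 and Arpc2 (r = 0.95 each), Cdc42 (r = 0.95) and Rexo2 (r = 0.94) came next. The 21 samples fall into 7 groups that share libraries with the contrasts that chose Cltc, so these values describe likeness only. The members were left out of this search, so it says nothing on the likeness of the partners to Cltc.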

How the data were processed

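RNA from TRAP (translating ribosome affinity purification) and total RNA of the same kind of lysate were sequenced in 21 samples of mouse embryos at embryonic day 14.5, 3 in each of 7 groups, which the study's methods call biological replicates. The authors prepared libraries with the TruSeq kit, mapped the reads with RUM to GRCm38 (mm10 in the submitters' processing notes) and obtained values per RefSeq gene from rpkmforgenes. The deposited read counts per gene are not normalized, and the deposited RPKM values were computed by the authors from those reads, transcript length and the reads mapped to mRNAs. Each of the 23827 rows is kept, and gene rows of the members carry 1 to 6 RefSeq accessions. Depth was 21760652 to 79231692 reads per sample, and the precision this gives is stated as the SD of 3 samples or the SE of a log2 fold change.

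The quasi-likelihood test of edgeR 4.0.16 (R 4.3.3, TMM scaling) was run on the counts, over all rows with at least 1 count, in 10 pairwise comparisons of 6 samples each and 1 interaction over 12. Adjusted p-values are Benjamini-Hochberg over all rows, a call is an adjusted p under 0.001, and the SE was derived from the log2 fold change and its F statistic. The test was checked on counts simulated with an assumed spread between samples, not one taken from the data. It found 58 of 100 changes of 1.5-fold in brain translatome against transcriptome and 44 of 100 in kidney EC against kidney translatome. All 100 changes of 4-fold were found in both, with 0 false calls. A missing call is therefore no evidence of equal levels. Shares and lengths of transcripts between the transcriptomes were tested by two-sided exact permutation, and named genes beyond the members were Rpl10a, Ap2s1, Snap91, the 3 highest and 3 lowest called pathway genes with a mean of at least 5 RPKM, and the 5 rows most like Cltc. Sequences and coordinates came from GENCODE vM21 on GRCm38. Python 3.11.15, pandas 2.3.3, numpy 2.4.6, scipy 1.17.1 and matplotlib 3.10.9 were used.

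The members and gene lists were chosen with earlier results of these data known. Per the study's sample sheet, transcriptome and translatome libraries of the same number come from the same tissue sample. Their deviations from the group means correlated at 0.376 to 0.656 in brain and 0.548 to 0.644 in kidney for the same number and at -0.408 to -0.125 and -0.366 to -0.222 for other numbers. The main fits left this pairing out, and only the replicate block took it in. Over all rows the block changed the brain calls of translatome against transcriptome from 3625 higher and 3596 lower to 4500 and 4433. Alternatives were DESeq2 1.42.0, RLE size factors, total counts alone, at least 10 counts in 3 samples, the replicate block, a fit of all 21 samples, a threshold of 0.05, each sample left out, the sequencing run as a term, read counts in place of RPKM, a pseudocount of 0.1, and no RPKM minimum. The threshold of 0.05 was applied to the main fit, so it could add calls but end none.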

Additional observations from a re-analysis of the deposited data

Results flagged for a closer look

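The log2 fold change of ribosome-bound over total RNA was not the same in brain and kidney for Ap2s1 and Snap91. In the interaction fit of 12 samples the difference, brain minus kidney, was 0.45 for Ap2s1 (0.446782 before rounding, SE 0.07, edgeR adjusted p = 0.000422) and 0.45 for Snap91 (0.452027 before rounding, SE 0.08, edgeR adjusted p = 0.000624). For Ap2s1 both organs were above 0, and for Snap91 both were below 0.

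The Ap2a1 share of the α subunit RPKM moved in opposite directions when EC translatomes were set against those of the whole organ. It was lower by 3.75 percentage points in brain (a difference of -3.75) and higher by 4.49 in kidney, with no overlap between the 3 samples of each group in either organ. The difference between the organs was not tested.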

How the results depend on the processing

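The values of named genes kept direction and side of the threshold in 1087 cases over the alternatives, passed it in 47 more, lost it in 42, reversed in 23 and moved by over 1 SD in 5. Of the summary values, mainly counts of members called and also the paralog shares, 274 stayed the same and 42 moved. A count was taken as the same within 1.5 times, and a share if it kept its sign. With total counts alone, members called were 1 lower (0 otherwise) for brain against kidney transcriptome, 1 higher and 2 lower (3 and 0) for brain EC and 1 higher (5) for kidney EC against the translatomes, 0 higher (1) for the Emx1-lineage translatome, 1 partner higher (4) for brain EC and 3 lower (1) for kidney EC against the transcriptomes. The same scaling reversed Picalm to -0.0391 between the transcriptomes, Cltb to -0.14, Ap2a1 to -0.14 and Ap2b1 to -0.18 in brain EC, and Clta to -0.0153, Ap2a2 to -0.0218, Ap2b1 to -0.13 and Ap2m1 to -0.0352 in kidney EC. It reversed Ap2a1 to -0.0364, Ap2a2 to -0.0191 and Ap2m1 to -0.0388 in the Emx1-lineage against the brain translatome, and Picalm to -0.16 in kidney EC and -0.0127 in the Emx1-lineage against the transcriptomes. The cause was not tested.

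With the replicate block, members called became 0 higher (1) in the Emx1-lineage, 1 higher (2) in brain against kidney EC and 1 higher (0) for the organ difference. Outside the transcriptome and translatome pairs the libraries share only a number. The block ended or gave no call beyond those of Clta and Picalm (kidney translatome), Cltb (kidney EC), Picalm (Emx1-lineage), Ap2b1 (brain against kidney EC) and Clta (organ difference). With all 21 samples in 1 fit, brain EC had 1 member lower (0), the Emx1-lineage 0 higher, and brain against kidney EC 5 higher, with Ap2a1 reversed to 0.0210. DESeq2 called 8 members higher (5) in kidney EC and 1 higher for the organ difference. At a threshold of 0.05 there were 8 higher in kidney EC, 1 lower in brain EC, 1 lower in the Emx1-lineage, 5 higher in brain against kidney EC and 1 higher for the organ difference. The filter of 10 counts gave 0 lower (1) in brain against kidney EC and reversed Ap2a1 to -0.0054 and Ap2m1 to -0.0073 in the Emx1-lineage.

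Leaving out each sample gave 3 to 6 members higher in kidney EC, 0 to 1 higher in the Emx1-lineage, 1 higher and 0 to 1 lower in brain against kidney EC, 0 to 1 lower in kidney EC against the transcriptome and 0 to 1 higher for the organ difference. In the Emx1-lineage Ap2b1 then ran from -0.0707 to 0.0242 and Ap2m1 from -0.0379 to 0.0831, and in kidney EC against the transcriptome Ap2a1 ran from -0.0461 to 0.0160. Over all rows, calls of the kidney translatome against the transcriptome went from 2880 higher and 3049 lower to 4636 and 4860 with the replicate block and to 1955 and 1759 with the sequencing run as a term. Those of the organ difference went from 472 and 829 to 1467 and 1978 with the block, 1107 and 1562 with DESeq2 and 263 and 587 without kidney transcriptome replicate 2. Precision is limited by 3 samples a group.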
